A study of Homo sapiens with 2 samples.

Results

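Chromosome 19 carries the densest store of zinc finger genes in the human genome, and their RNA was compared here between A2780 cells with a JAM3 knockdown and control cells. The members were all genes annotated as protein-coding on chromosome 19 whose symbol is ZNF followed by a number and at most 1 letter. The rule used no measured value, and it found 246 genes among the 57169 genes of the deposited table. The deposited table places 238 of them in the zf-C2H2 transcription factor family.

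Poly(A)-selected RNA was sequenced from A2780, an established human ovarian cancer cell line, in 2 libraries. The shJAM3 library came from cells with a stable knockdown of JAM3, the gene of an adhesion protein of cell junctions, and its genotype label reads JAM3 knockdown. The shControl library carries the genotype label WT, while the design text names an empty vector there. It also mentions siRNA, although the library names begin with sh, and the sources do not say whether the cells were 1 clone or a pool.

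KRAB zinc finger proteins are the largest family of human transcription factors. Each carries a row of C2H2 fingers that reads DNA and a KRAB box that recruits TRIM28 (KAP1), which brings in the histone methyltransferase SETDB1 and heterochromatin proteins. They are known above all for silencing retroelements, and most arose by tandem duplication, which left them in clusters along chromosome 19. Members without a KRAB box have other roles, and many are older genes.

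The shJAM3 library held 16455079 fragments and the shControl library 15570262, recovered from the deposited FPKM (fragments counted on a gene, divided by its length in kilobases and by library size). JAM3 itself had 14 fragments in shJAM3 and 18 in shControl, which is 0.154 FPKM in shJAM3 and 0.215 FPKM in shControl, with a ratio of 0.716 and a 95% counting interval of 0.330 to 1.52. That interval holds 1, and its lower bound lies above the ratio that the knockdown stated in the design text would leave, so these counts do not show it. Of the epithelial markers 4 of 10 reached a mean of 1 FPKM, with a summed level of 541 FPKM in shJAM3 and 624 FPKM in shControl, and WT1 had 0 fragments in shJAM3 and 1 in shControl. All 4 mesenchymal markers reached that level, with sums of 84.4 FPKM in shJAM3 and 83.1 FPKM in shControl. The blood markers summed to 1.36 FPKM in shJAM3 and 2.66 FPKM in shControl with PTPRC and HBB at 0 in both libraries, the endothelial ones to 0.405 FPKM in shJAM3 and 0.482 FPKM in shControl, and the fibroblast ones to 14.3 FPKM in shJAM3 and 17.3 FPKM in shControl. The part of other cell types in the results below was not tested, and in bulk RNA fewer cells of a kind and less RNA per cell cannot be told apart.

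The genes fall into 2 classes that differ in base composition. The lines below show 1 finger from each of 4 members whose RNA differed between the libraries, both members that were at least 2-fold lower in shJAM3 after adding 1 to each FPKM, which are GC-rich, and a pair of AT-rich KRAB members that were among the highest. Each runs from the first cysteine codon to the last histidine codon in the coding direction, and the capitals mark the 2 cysteine and 2 histidine codons that hold the zinc ion. They were read from GENCODE 29 transcripts (GRCh38). ZNF579 lies at chr19:55579442-55579504 on the minus strand, ZNF628 at chr19:55481305-55481367 on the plus strand, ZNF561 at chr19:9611004-9611066 on the minus strand and ZNF761 at chr19:53455237-53455299 on the plus strand, each within 1 coding exon.
ZNF579: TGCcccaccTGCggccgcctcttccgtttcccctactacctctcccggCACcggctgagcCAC
ZNF628: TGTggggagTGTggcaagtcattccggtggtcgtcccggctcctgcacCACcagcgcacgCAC
ZNF561: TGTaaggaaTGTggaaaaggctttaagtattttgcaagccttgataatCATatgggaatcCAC
ZNF761: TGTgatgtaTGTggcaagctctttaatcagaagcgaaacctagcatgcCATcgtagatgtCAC
All 4 are 63 bases long because the pattern used to find them had a fixed spacing. Their GC content was 69.8% in ZNF579, 66.7% in ZNF628, 36.5% in ZNF561 and 44.4% in ZNF761. The gap was widest at the last base of the codons, where G or C stood in 95.2%, 85.7%, 33.3% and 38.1% of codons in the same order.

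The same contrast held over the whole family. A KRAB A box was found in the coding sequence of 210 members, and none was found in 36. Members with the box had a median of 13 fingers, a median protein of 595 residues and a median coding GC content of 41.3%. Members without it had a median of 9 fingers, 482 residues and a coding GC content of 63.8%. At the last base of the codons G or C made up 37.3% in the KRAB class and 74.6% in the other. The transcripts of KRAB members ranged from 33.9% to 59.8% GC, so the classes overlap in base composition.

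Most of the family was near silence in these cells. Members averaging 1 FPKM or more across the pair of libraries were called measured, and they numbered 90 of 246 (36.6%). A further 106 had fragments but stayed below that level, and 50 had no fragment in either library, which allows up to 3 fragments in each. Of all protein-coding genes 52.7% were measured, and of ZNF genes on other chromosomes 163 of 262. The KRAB class was the quieter one, with 64 of 210 members measured (30.5%) against 26 of 36 in the class with no box found. Median levels over the measured members were 1.88 FPKM in shJAM3 and 1.52 FPKM in shControl, so most of them lie close to the filter.

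Each library is 1 sample, so no difference has a replicate check and none was tested. A difference is given as the log2 ratio of shJAM3 over shControl after adding 1 to each FPKM, a scale that shrinks differences of low genes, and as the plain FPKM ratio with an exact 95% interval from the fragments. That interval covers counting error only. On the first scale no measured member was at least 2-fold higher in shJAM3 (0.391% of the 10499 measured protein-coding genes were). ZNF579 and ZNF628 were at least 2-fold lower (1.41% of measured protein-coding genes were). By the plain ratio ZNF586, ZNF761, ZNF566 and ZNF614 were more than 2-fold higher, at 2.35, 2.11, 2.10 and 2.005. On that scale ZNF579, ZNF628, ZNF653 and ZNF865 were more than 2-fold lower. The interval lay above 1 for 42 of the 90 members, against 34.5% of measured protein-coding genes, and below 1 for 21, against 36.8%. For the other 27 it held 1. Members are shallower than the typical gene, with a median mean level of 1.71 FPKM against 7.87 FPKM, so the same difference is less often outside the counting error in them. In all, 59 measured members had a positive log2 ratio and 31 a negative one, with a median of 0.17, against 5182 and 5316 genes and a median of -0.01 for all measured protein-coding genes.

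**Figure D1:**
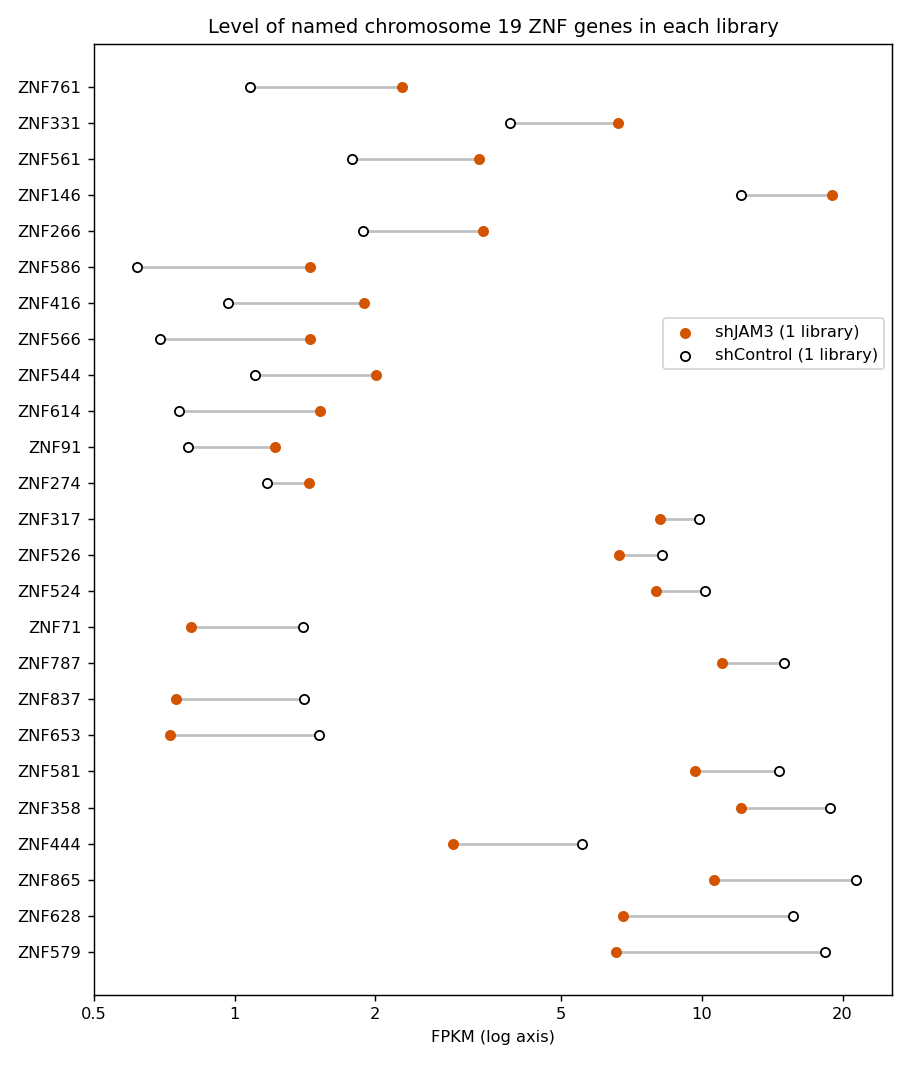
Level of 25 named members in the shJAM3 library (filled) and the shControl library (open), in FPKM on a log axis, ordered by log2 ratio. The filled point lies to the right for ZNF761 down to ZNF274 and to the left for ZNF317 down to ZNF579, and the highest members, ZNF865, ZNF146 and ZNF358, fall on both sides.

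The lower side was led by GC-rich members with no KRAB box found. ZNF579, an 8-finger protein, was at 6.55 FPKM in shJAM3 (363 fragments) and at 18.3 FPKM in shControl (935 fragments). Its ratio was 0.358 (0.316 to 0.404) and its log2 ratio -1.36, the lowest of all measured members. ZNF628, whose mouse counterpart acts in male germ cells, was at 6.77 FPKM in shJAM3 and 15.7 FPKM in shControl, with a ratio of 0.433 (0.385 to 0.485). An annotated gene on the other strand overlaps 3.92% of its exon bases, and the protocol describes no step that marks the strand. ZNF865, a 20-finger protein of 71.1% GC, was at 10.6 FPKM in shJAM3 and 21.4 FPKM in shControl, with a ratio of 0.496 (0.452 to 0.543). ZNF444, which pairs its fingers with a SCAN box, a protein contact domain, was at 2.94 FPKM in shJAM3 and 5.55 FPKM in shControl, with a ratio of 0.530 (0.464 to 0.605). The intervals of all 4 lie well below 1.

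The other 6 of the 10 lowest members had log2 ratios of -0.59 to -0.41. ZNF358 was at 12.1 FPKM in shJAM3 and 18.8 FPKM in shControl, with a ratio of 0.645 (0.568 to 0.732), although 34.4% of its exon bases lie in exons of other annotated genes. ZNF581 was at 9.67 FPKM in shJAM3 and 14.6 FPKM in shControl, with a ratio of 0.663 (0.567 to 0.775), and 23.4% of its exon bases lie in exons of other genes, chiefly the neighbouring ZNF580. ZNF787 was at 11.0 FPKM in shJAM3 and 15.0 FPKM in shControl, a ratio of 0.734 (0.662 to 0.813). ZNF653 and ZNF837 were low, with 40 and 26 fragments in shJAM3 against 77 and 45 in shControl. Their ratios were 0.479 (0.318 to 0.710) and 0.532 (0.315 to 0.881). Of the exon bases of ZNF653, 14.5% lie in exons of other genes, and 19.3% of the 50-base words of its transcript also occur in other genes. ZNF71 was the single KRAB member among the 10 lowest, at 0.807 FPKM in shJAM3 and 1.40 FPKM in shControl, with a ratio of 0.575 (0.432 to 0.762).

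The 10 highest members by log2 ratio were all below 50% GC, and 9 of them have a KRAB box. ZNF761 was at 2.28 FPKM in shJAM3 (179 fragments) and 1.08 FPKM in shControl (78 fragments). Its ratio was 2.11 (1.61 to 2.79), its log2 ratio of 0.66 was the highest of the measured members, and 10.8% of the 50-base words of its transcript also occur in other genes. ZNF331, a KRAB gene that is imprinted in some tissues, was the deepest of the KRAB members that were higher, at 6.60 FPKM in shJAM3 (983 fragments) and 3.89 FPKM in shControl (533 fragments). Its ratio was 1.70 (1.53 to 1.89), and it shares neither exons nor 50-base words with another gene. The gene spans chr19:53519527-53580269 on the plus strand. ZNF561 was at 3.34 FPKM in shJAM3 and 1.78 FPKM in shControl, with a ratio of 1.87 (1.56 to 2.26). ZNF266 was at 3.41 FPKM in shJAM3 and 1.88 FPKM in shControl, with a ratio of 1.81 (1.49 to 2.21). These 4 intervals lie wholly above 1.

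ZNF146 was the exception in class, a protein of 292 residues that consists of little but its 10 fingers. It was the highest member in shJAM3, at 19.03 FPKM (1316 fragments), against 12.1 FPKM in shControl (773 fragments). Its ratio was 1.57 (1.43 to 1.72), and 10.8% of its exons lie opposite ZNF565. ZNF565 had 49 fragments in shJAM3 and 46 in shControl, a ratio of 0.981 (0.643 to 1.5). The other 5 of the 10 highest, ZNF586, ZNF416, ZNF566, ZNF544 and ZNF614, had 1.45 to 2.01 FPKM in shJAM3 and 0.619 to 1.11 FPKM in shControl. Their ratios ran from 1.82 for ZNF544 to 2.35 for ZNF586, and the lowest bound among them was 1.32, in ZNF416.

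The members with the highest levels divide by direction. The 7 members at a mean of 10 FPKM or more were ZNF865, ZNF146, ZNF358, ZNF787, ZNF579, ZNF581 and ZNF628. None of them has a KRAB box by the pattern used, 6 were lower in shJAM3, and their median transcript GC content was 69.1%. Of the 8 members between 5 and 10 FPKM, 2 were higher and 6 lower. ZNF317, ZNF524 and ZNF526 belong there, with 8.14, 7.98 and 6.65 FPKM in shJAM3 against 9.85, 10.2 and 8.22 FPKM in shControl. Of the 54 members between 1 and 2 FPKM, 43 were higher and 11 lower, 46 had a KRAB box, and the median GC content was 42.9%. Level, class and base composition thus move together among the members, and their parts in the ratio cannot be told apart here.

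By class, 49 of the 64 measured KRAB members had a positive log2 ratio and 15 a negative one, with a median of 0.22. The interval lay above 1 for 35 of them (54.7%) and below 1 for 7 (10.9%), against 34.5% and 36.8% of all measured protein-coding genes. For all measured protein-coding genes below 50% GC the shares were 50.6% and 19.2%. Of the 26 measured members with no KRAB box found, 10 were positive and 16 negative, with a median of -0.22. The interval lay above 1 for 7 (26.9%) and below 1 for 14 (53.85%), against the same 34.5% and 36.8% of all measured protein-coding genes. Summed over all members, KRAB genes had 17913 fragments in shJAM3 and 12992 in shControl, a ratio of 1.27 (1.24 to 1.30) after the authors' scaling. The genes with no box found had 9076 fragments in shJAM3 and 10619 in shControl, a ratio of 0.787 (0.765 to 0.810). For comparison, KRAB ZNF genes of other chromosomes summed to 15526 fragments in shJAM3 and 14150 in shControl. All protein-coding genes summed to 16020873 in shJAM3 and 15232901 in shControl. Fragment sums were not adjusted for GC content.

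Base composition moved with the log2 ratio, among the members and across the whole transcriptome. Over the 90 members the log2 ratio and transcript GC content had a Pearson r of -0.68 and a Spearman's rho of -0.56. Over 10496 measured protein-coding genes r was -0.50 and rho -0.51, and the median log2 ratio was 0.23 in the lowest of 10 equal groups by GC and -0.44 in the highest. These are correlations across genes that share the same 2 libraries, given as a description. When each gene was centred on the median of genes of like GC content, the KRAB median became 0.11 and the median of the class with no box found became 0.06. The class with no box found thus had a negative median before centring and a positive one after it. The part of library preparation in the relation with GC content was not tested.

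**Figure D2:**
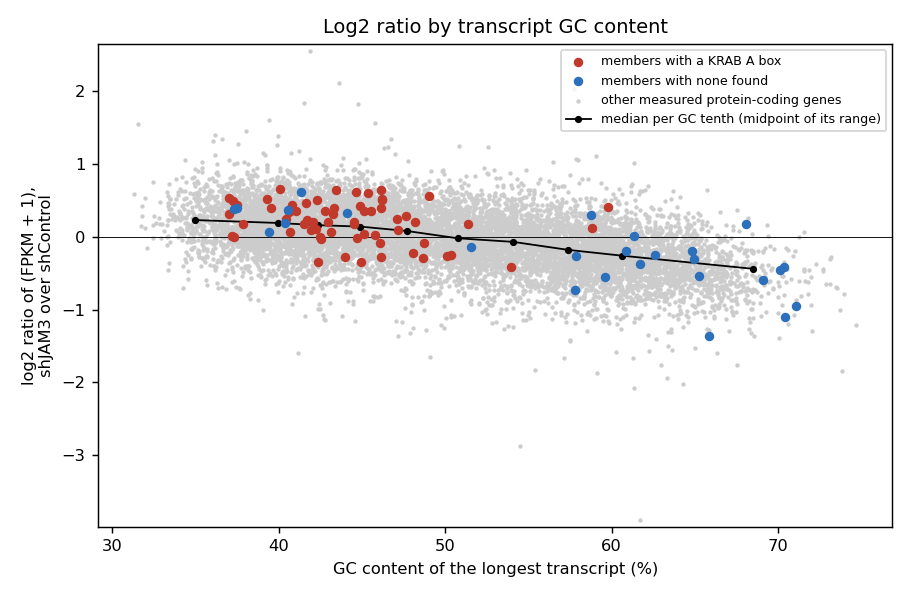
Log2 ratio of shJAM3 over shControl against GC content of the longest transcript, for members with a KRAB A box (red) or with none found (blue) and for other measured protein-coding genes (grey). The black line joins the medians of 10 equal groups of genes by GC content, which run from 0.23 to -0.44, and the members follow its slope.

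Splitting the members at 50% GC showed the same thing in counts. Of 58 KRAB members below 50% GC, 46 were higher and 12 lower, with a median of 0.25. The interval lay above 1 for 58.6% of them, against 50.6% of all measured protein-coding genes below 50% GC, and below 1 for 6.90%, against 19.2%. All 7 members below 50% GC with no KRAB box found, among them ZNF146, ZNF260 and ZNF507, were higher too, with a median of 0.37. The 6 KRAB members of at least 50% GC divided 3 and 3, with a median of -0.06. Of 19 such members with no box found 3 were higher and 16 lower. The interval lay below 1 for 73.7% of these 19, against 56.1% of all measured protein-coding genes of at least 50% GC. The 2 sets are unlike in composition, with a median GC content of 64.8% in the members and 57.8% in all such genes. After GC centring the median log2 ratio of the 19 was -0.05. In both classes the share of higher members was larger below 50% GC.

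After centring on GC content, ZNF579 kept a log2 ratio of -0.86, ZNF628 one of -0.60, ZNF444 one of -0.52 and ZNF865 one of -0.45. Among the rest of the 10 lowest, ZNF71 was at -0.37, ZNF581 at -0.34, ZNF358 at -0.10 and ZNF653 at -0.05. ZNF787 and ZNF837 turned positive. The highest centred values were those of ZNF296 at 0.66 and ZNF324B at 0.62, both GC-rich at 68.1% and 59.8%, followed by ZNF561, ZNF331 and the GC-rich ZNF446 at 0.51. ZNF761 was at 0.47. Before centring, ZNF296 had an interval of 0.853 to 1.60, while those of ZNF324B (1.19 to 2.05) and ZNF446 (1.09 to 2.03) lay above 1. ZNF324B and ZNF446 share 17.3% and 35.4% of their 50-base words with other genes. Of the exon bases of ZNF446, 58.5% lie in exons of other genes, chiefly ZNF324. Centring moved 6 measured members from lower to higher, among them ZNF787 at 0.08, ZNF524 at 0.19 and ZNF837 at 0.04, and 10 from higher to lower, among them ZNF507 and ZNF808, both at -0.12. With ratios and intervals divided by the median ratio of genes of like GC content, the interval lay above 1 for 33 members (36.7%) and below 1 for 15 (16.7%). The shares for all measured protein-coding genes were 32.5% and 33.3%.

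**Figure D3:**
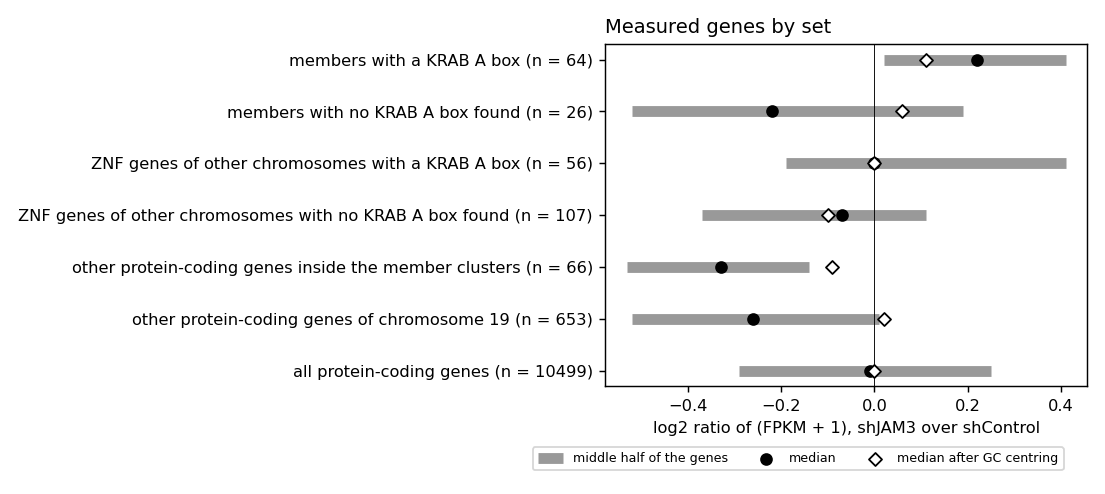
Median log2 ratio of shJAM3 over shControl (filled circle), the middle range from the lower to the upper quartile (bar) and the median after centring on GC content (diamond) for members and comparison sets of measured genes. The medians of the 2 member classes, 0.22 and -0.22, come to 0.11 and 0.06 after centring.

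ZNF genes on other chromosomes were taken as the nearest comparison. Of their 56 measured KRAB genes 28 were higher and 28 lower, with a median of -0.00 before and after GC centring. Of the 64 measured KRAB members 49 were higher before centring and 40 after it, with medians of 0.22 and 0.11. Before centring the interval lay above 1 for 21 of the 56 and 35 of the 64. It lay below 1 for 14 of the 56 and 7 of the 64. The shares for all measured protein-coding genes were 34.5% above and 36.8% below. With member intervals divided by the median ratio of genes of like GC content, 28 of the 64 lay above 1 and 10 below. The median GC content of the measured KRAB genes was 43.7% among the members and 44.7% on other chromosomes. The difference between these groups was not tested, since genes of 1 library pair are not replicates. The 653 other measured protein-coding genes of chromosome 19 were mostly lower, with 170 higher, 483 lower and a median of -0.26, at a median GC content of 60.4%. After GC centring their median was 0.02.

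Position was described by cutting the chromosome wherever consecutive members start more than 1 Mb apart, which gave 16 clusters. Of the 9 with at least 3 measured members, 8 had a positive median log2 ratio. After GC centring 6 of the 9 had one, among them the last cluster, whose median was negative before. The cluster at chr19:51571298-53580269, from ZNF175 to ZNF331, holds 39 members, all with a KRAB box. Its 14 measured members were all higher in shJAM3, with log2 ratios of 0.07 to 0.66 and a median of 0.36. The interval lay above 1 for 12 of the 14, against 34.5% of all measured protein-coding genes and 50.6% of those below 50% GC. ZNF160, for example, was at 1.44 FPKM in shJAM3 and 0.773 FPKM in shControl, a ratio of 1.87 (1.47 to 2.40), and ZNF28 at 2.02 FPKM in shJAM3 and 1.29 FPKM in shControl, a ratio of 1.57 (1.24 to 1.99). Over all 39 members the cluster had 4385 fragments in shJAM3 and 2580 in shControl, a ratio of 1.57 (1.49 to 1.64). After GC centring its median was 0.19. ZNF468 is uncertain, since 53.3% of its exon bases lie in exons of other genes, chiefly ZNF320 on the same strand, and 99.2% of its 50-base words also occur in other genes.

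The cluster at chr19:36182060-37817300, from ZNF565 to ZNF573, was also higher as a sum. Its 26 members had 2887 fragments in shJAM3 and 1701 in shControl, a ratio of 1.56 (1.47 to 1.66). All 6 measured members, ZNF146, ZNF566, ZNF260, ZNF529, ZNF585B and ZNF607, were higher, each with its interval above 1 and a median log2 ratio of 0.41. The share with the interval above 1 was 34.5% for all measured protein-coding genes and 50.6% for those below 50% GC. The 3 members at chr19:39984134-40090938 all stayed below 1 FPKM, yet together had 288 fragments in shJAM3 and 144 in shControl, a ratio of 1.84 (1.5 to 2.27). Their transcripts have 37.7% to 38.0% GC, and this sum was not adjusted for GC content.

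At chr19:7069444-9793180, 5 of 10 measured members were higher and 5 lower, while 27 other protein-coding genes in the same stretch had a median log2 ratio of -0.41 at 62.0% GC. At chr19:43525497-45076588, 5 of 6 measured members were higher, with a median of 0.27 before and 0.29 after GC centring. The 17 other genes between them had a median of -0.23 before centring. Median GC content was 48.9% in these members and 58.4% in those genes. Over all clusters the 66 measured other genes had a median of -0.33, and of -0.09 after centring. Over the 24 members of this stretch the fragments gave a ratio of 1.35 (1.25 to 1.47). At chr19:34677639-34964049 all 3 measured members were higher, with a median of 0.17, and of -0.06 after GC centring, and the ratio over its 5 members was 1.24 (1.11 to 1.39). The large pericentromeric cluster at chr19:19668796-24129961, which holds ZNF91, had 16 of its 37 members at 0 in both libraries. Its 5 measured members had a median of 0.01, and -0.22 after GC centring, while all 37 together had 1730 fragments in shJAM3 and 1330 in shControl, a ratio of 1.2 (1.11 to 1.29).

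The last cluster, chr19:55476332-58481230, lies near the end of the long arm and holds 59 members, 33 of them measured. Of these, 16 were higher and 17 lower, with log2 ratios of -1.36 to 0.60 and a median of -0.08 (0.01 after GC centring). Over all 59 members it had 7799 fragments in shJAM3 and 9301 in shControl, a ratio of 0.772 (0.749 to 0.796). In gene order its first 13 measured members, from ZNF628 to ZNF460 at chr19:55476332-57293569, were all lower, a run singled out after its values were seen. It begins with 9 GC-rich members with no KRAB box found, and continues with 4 KRAB members, ZNF71, ZNF264, ZNF805 and ZNF460. ZNF264, at 42.4% GC, was at 1.78 FPKM in shJAM3 (371 fragments) and 2.50 FPKM in shControl (482 fragments), a ratio of 0.709 (0.618 to 0.813). ZNF460 had a ratio of 0.716 (0.517 to 0.990) and ZNF805 one of 0.730 (0.519 to 1.02). After GC centring these 4 KRAB members were at -0.37, -0.47, -0.36 and -0.41, and 10 of the 13 in the run remained negative. The run is followed farther along by 10 measured members, ZNF550 to ZNF544 at chr19:57535257-58277495, that were all higher. This later run too was singled out after its values were seen. Its median was 0.34, and 0.23 after centring, at a median GC content of 45.5%. Of all measured protein-coding genes below 50% GC, 3745 of 5483 were higher.

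**Figure D4:**
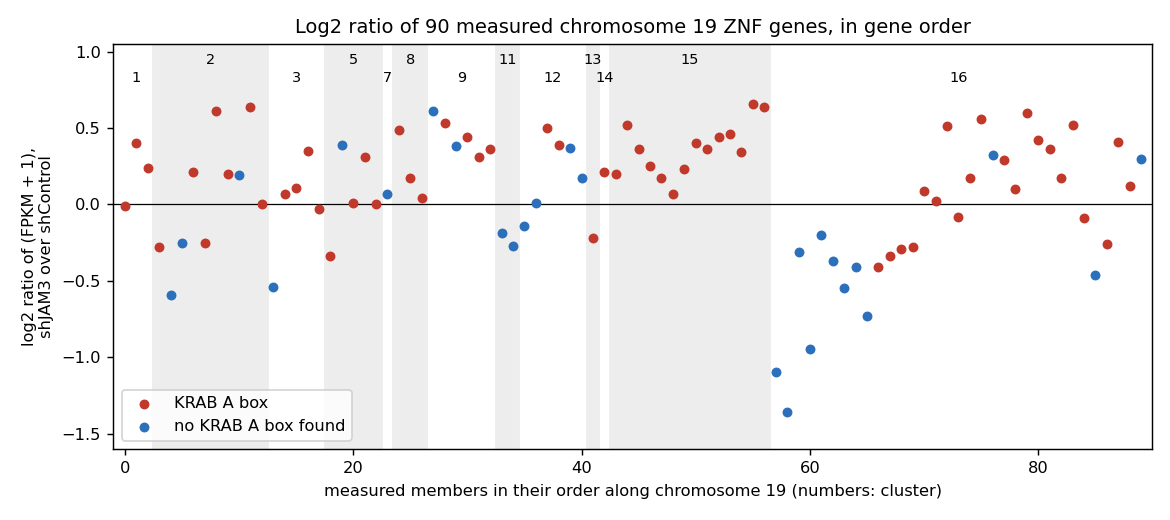
Log2 ratio of shJAM3 over shControl for the 90 measured members in their order along chromosome 19, coloured by KRAB class. The cluster from ZNF175 to ZNF331 lies wholly above 0, between 0.07 and 0.66, and the 13 members from ZNF628 to ZNF460 that follow it lie wholly below 0, down to -1.36.

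Promoter letters were compared for the 2 members at the ends of the range, as RefSeq gives them (GRCh38.p14). Each line holds the 250 bases before the start, read toward the gene, and the capitals mark the GC box GGGCGG or its reverse complement CCGCCC, a motif bound by SP1-type factors. ZNF579 lies at chr19:55580849-55581098 on the minus strand and ZNF761 at chr19:53431734-53431983 on the plus strand.
ZNF579: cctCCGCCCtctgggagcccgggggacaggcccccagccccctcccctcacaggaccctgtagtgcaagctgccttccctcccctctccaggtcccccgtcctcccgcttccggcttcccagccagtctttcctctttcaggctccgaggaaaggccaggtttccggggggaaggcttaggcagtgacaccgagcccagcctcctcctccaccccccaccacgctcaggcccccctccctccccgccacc
ZNF761: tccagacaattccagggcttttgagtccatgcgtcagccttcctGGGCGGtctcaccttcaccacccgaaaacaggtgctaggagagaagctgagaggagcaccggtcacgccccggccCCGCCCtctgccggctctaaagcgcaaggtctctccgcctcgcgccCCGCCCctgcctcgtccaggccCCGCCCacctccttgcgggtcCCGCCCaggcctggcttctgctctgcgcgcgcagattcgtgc
Both windows are GC-rich, at 70.4% in ZNF579 and 67.6% in ZNF761, although the transcripts differ at 65.9% and 40.1%. ZNF761 had 21 CpG and 5 boxes, and ZNF579 had 10 CpG and 1 box. Among measured members with 1 listed start, 30 of 47 KRAB promoters (63.8%) and 16 of 21 others (76.2%) held the motif on either strand, and no other motif was searched. The share was 73.2% for measured protein-coding genes, 57.8% for all protein-coding genes and 71.4% for the 35 members at 0 in both libraries. A match is only a match of letters.

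Members below the filter could not be read on the log2 scale, since 1 FPKM is added to each level, but their fragments could. Of the 106 with at least 1 fragment, 77 had a ratio above 1 and 29 below. The interval lay above 1 for 40 of them (37.7%), against 11.1% of the 4803 protein-coding genes below 1 FPKM, and below 1 for 1 (0.943%), against 9.83%. An interval excludes 1 more easily with more fragments, and the 2 sets were not matched for depth. Of the 106 members 59 had at least 50 fragments over both libraries. The median GC content of the 106 members was 41.2%. Among all low protein-coding genes below 50% GC the share with the interval above 1 was 17.1%, and the share below 1 was 6.38%. Taken as a sum, the 156 members below the filter had 4614 fragments in shJAM3 and 2953 in shControl, a ratio of 1.44 (1.37 to 1.51). The 90 measured members summed to 22375 fragments in shJAM3 and 20658 in shControl, a ratio of 0.998 (0.979 to 1.02). In that sum the few abundant members that were lower and the many that were higher offset each other.

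The 5 low members with the highest lower bounds, picked after their values were seen, were ZNF569, ZNF525, ZNF559, ZNF816 and ZNF443. ZNF525 had 182 fragments in shJAM3 and 53 in shControl, a ratio of 3.16 (2.32 to 4.38). ZNF569 had 28 fragments in shJAM3 and 3 in shControl, with a ratio of 8.60 and an interval of 2.66 to 44.2. ZNF816 had 68 fragments in shJAM3 and 18 in shControl, a ratio of 3.48 (2.05 to 6.22), with 14.1% of its 50-base words shared with other genes. ZNF559 had 37 fragments in shJAM3 and 7 in shControl, and ZNF443, at 40.2% shared words, had 29 in shJAM3 and 5 in shControl. The 1 member with its interval below 1 was ZNF792, with 45 fragments in shJAM3 and 74 in shControl, a ratio of 0.560. Just outside the filter stood ZNF525, ZNF554 and ZNF383, each at a mean of 0.998 FPKM, and just inside it ZNF91 at 1.01 and ZNF585B at 1.02 FPKM.

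**Figure D5:**
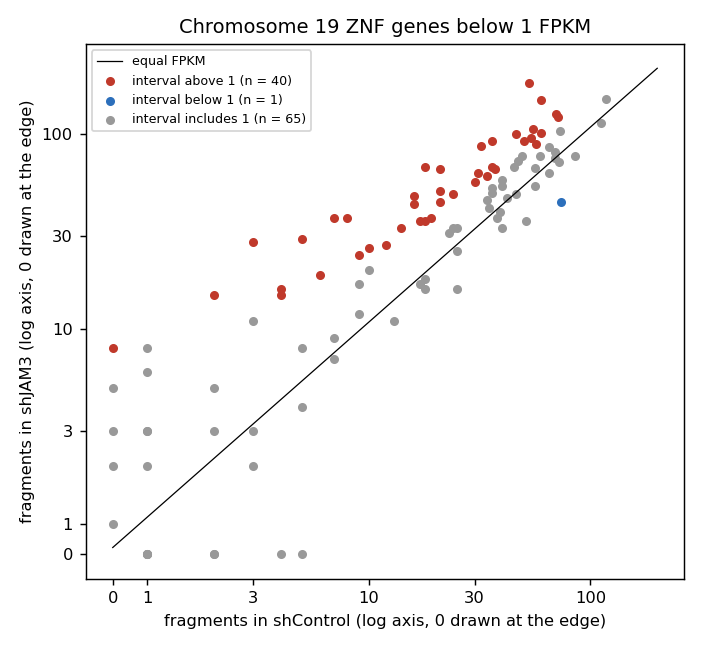
Fragments in shJAM3 (vertical) against fragments in shControl (horizontal) for the members below 1 FPKM with at least 1 fragment, on log axes. The points lie mostly above the line of equal FPKM, and 40 of the 106 have a counting interval above 1 while 1 has it below.

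Members with known targets were mostly low. ZNF91, which silences SVA retroelements, had 212 fragments in shJAM3 and 127 in shControl, a ratio of 1.54 (1.23 to 1.93), and a log2 ratio of 0.07 after GC centring. ZNF93, a repressor of LINE-1 elements, had 0 fragments in shJAM3 and 1 in shControl. ZNF765, which binds LINE-1 elements, had 114 fragments in shJAM3 and 112 in shControl, a ratio of 0.938 (0.716 to 1.23), and ZNF649 had none in either library. ZNF274, which binds the ends of zinc finger genes and recruits SETDB1 there, was at 1.45 FPKM in shJAM3 and 1.17 FPKM in shControl, and its interval of 0.994 to 1.54 held 1. In this group only ZNF91 had an interval clear of 1.

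The partners of tumour suppressors were all below 1 FPKM, and all 3 had an interval above 1, against 37.7% of the low members with a fragment, 11.1% of low protein-coding genes and 17.1% of those below 50% GC. Their transcripts have 38.6% to 42.6% GC, and low members were neither centred on GC content nor matched to other genes for depth. ZNF420, a KRAB protein that restrains p53, had 92 fragments in shJAM3 and 36 in shControl, a ratio of 2.35 (1.59 to 3.56). ZNF350, a partner of BRCA1, had 36 fragments in shJAM3 and 18 in shControl, a ratio of 1.84 (1.02 to 3.45). ZNF224, a partner of WT1, had 61 fragments in shJAM3 and 34 in shControl, a ratio of 1.65 (1.07 to 2.59), in cells where WT1 itself had 0 fragments in shJAM3 and 1 in shControl. The count of ZNF224 is uncertain, since an annotated gene on the other strand overlaps 40.5% of its exon bases.

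Of 11 members often reported as methylated in tumours, ZNF331 alone was measured. ZNF135, ZNF471, ZNF582, ZNF667, ZNF671 and ZNF577 had no fragment in either library. A count of 0 allows up to 3 fragments, which for ZNF582 is 0.0537 FPKM in shJAM3 and 0.0583 FPKM in shControl. ZNF154 had 3 fragments, ZNF132 had 8, ZNF382 had 5 and ZNF177 had 0 in shJAM3, against 2, 5, 2 and 2 fragments in shControl. All 4 intervals held 1, and methylation was not measured here. The count of ZNF177 is uncertain, since 90.8% of its exon bases lie in exons of other genes, chiefly ZNF559-ZNF177. Of its 50-base words 97.8% also occur in other genes.

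A corepressor list was also read, which holds TRIM28 and SETDB1 but also silencing genes not limited to recruitment by KRAB proteins, such as ATRX, DAXX and UHRF1. Its genes were mostly well expressed and divided in direction. Of 27 genes 26 were measured, 14 positive and 12 negative, with a median log2 ratio of 0.02, and none was 2-fold higher or lower. ZFP57, the gene not measured, had 0 fragments in shJAM3 and 2 in shControl. The interval lay above 1 for 11 (42.3%) and below 1 for 11 (42.3%), against 34.5% and 36.8% of all measured protein-coding genes. TRIM28, the scaffold that binds the KRAB box, was at 90.9 FPKM in shJAM3 (6115 fragments) and 129 FPKM in shControl (7994 fragments), a ratio of 0.705 (0.681 to 0.729). At 63.7% GC it had a log2 ratio of -0.50, and of -0.12 after GC centring. SETDB1, the methyltransferase it brings in, was at 5.36 FPKM in shJAM3 and 5.30 FPKM in shControl, a ratio of 1.01 (0.903 to 1.13).

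KDM1A, a histone demethylase, was at 44.4 FPKM in shJAM3 and 69.2 FPKM in shControl, a ratio of 0.642 (0.617 to 0.668), and its log2 ratio of -0.63 was -0.64 after GC centring. EHMT2, a histone methyltransferase, was at 15.0 FPKM in shJAM3 and 21.8 FPKM in shControl, a ratio of 0.690 (0.649 to 0.733), and its log2 ratio of -0.51 was -0.21 after GC centring. FAM208A (TASOR), the core of the HUSH silencing complex, was at 10.5 FPKM in shJAM3 and 6.87 FPKM in shControl, a ratio of 1.53 (1.42 to 1.66). SMARCAD1, a chromatin remodeller that binds TRIM28, stood at 5.00 FPKM in shJAM3 and 3.08 FPKM in shControl, a ratio of 1.62 (1.40 to 1.87). The last 2 are at 36.0% GC and had centred log2 ratios of 0.31 and 0.32.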

How the data were processed

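RNA of A2780 cells was measured in 1 shJAM3 and 1 shControl library. Oligo-dT beads selected mRNA, per the labels' protocols, which describe neither strand marking nor molecular identifiers. The authors deposited FPKM per gene. Among the tools in the submitters' processing notes are the aligner HISAT2 2.0.5 and the counter featureCounts 1.5.0-p3, without stated roles. The build was not given in the sources used here. All 246 members matched GENCODE 29 (GRCh38) by identifier, position and symbol.

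The deposited FPKM were whole multiples of 1 fragment for 100.0% of values (tolerance 0.001 fragments). The library sizes they imply are 1.01 times the recovered total in shJAM3 and 0.987 times in shControl, so a scaling between the libraries is included whose method is not given. A count test needs replicates and was not run. Of rows sharing a symbol the highest was kept, which left out 1566 of 58735. Genes averaging 1 FPKM or more were called measured, the pseudocount was 1 FPKM and the size rule a log2 ratio of 1 in either direction. Intervals are exact conditional binomial 95% intervals on fragments. GC centring used 20 bins of protein-coding genes. The calculations were checked on simulated data.

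KRAB boxes and fingers were found by pattern in translated GENCODE 29 coding sequences, so a degenerate box can be missed. Of measured members 46 overlap exons of another gene, and 19 share at least 10% of their 50-base words with other genes. Promoters came from RefSeq for genes with 1 listed start. Genes named are the 10 highest and 10 lowest measured members by log2 ratio, the 10 with the highest level, members past the size rule or next to the filter, role lists and up to 6 corepressors. The members and lists were chosen with earlier results of these data known. Alternatives were another pseudocount, scaling, GC centring, other filters, a 99% interval, and members without exon overlap or shared words. Python 3.11.15, numpy 2.4.6, pandas 2.3.3, scipy 1.17.1 and Biopython 1.88 were used.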

Additional observations from a re-analysis of the deposited data

How the results depend on the processing

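With 1 library per group, differences between these libraries cannot be told apart from differences between conditions. No paired analysis was possible because each group had 1 library. Members close to 1 FPKM have few fragments and wide counting intervals. The median log2 ratio of the measured members (0.17) was 0.27 with a pseudocount of 0.1 FPKM, 0.08 after GC centring, 0.12 with no filter, 0.10 in members with no exon overlap and -0.31 in the 15 members of at least 5 FPKM. For KRAB members (0.22) it was 0.34 with the smaller pseudocount, 0.11 after GC centring, 0.16 with no filter and -0.25 at 5 FPKM, where 3 members were left. For members with no KRAB box found (-0.22) it was -0.30 with the smaller pseudocount, 0.06 after GC centring, -0.14 with no filter and -0.39 at 5 FPKM. The corepressor median (0.02) was 0.05 when scaled by recovered totals, -0.02 after GC centring and -0.13 at 5 FPKM, where 8 genes were higher instead of 14. The cause of these shifts was not tested.

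Members at least 2-fold higher numbered 2 with the smaller pseudocount instead of 0. Those at least 2-fold lower numbered 0 after GC centring and 1 among members with no exon overlap, instead of 2. Intervals above 1 numbered 42, but 3 at 5 FPKM, 82 with no filter, 69 with at least 50 fragments and 17 among the 44 members with no exon overlap. Intervals below 1 numbered 21, but 12 at 5 FPKM. Of clusters with 3 or more measured members, 8 of 9 had a positive median, and 0 of the 2 that were left at 5 FPKM. Among named genes GC centring turned the direction of ZNF524 (0.19), ZNF787 (0.08) and ZNF837 (0.04), and neither other scaling turned any. Restricting members by protein identity was not run, as no protein table was used here, and the shared 50-base words were put in its place after seeing the data, as was the GC-divided interval.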

Other observations

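Finger number and gene length were also set against the log2 ratio over the 90 measured members, as a description across genes of the same 2 libraries. The number of C2H2 fingers had a Pearson r of 0.23 with the log2 ratio and 0.02 after GC centring. Gene length had an r of 0.23, and -0.08 after centring. The mean level had an r of -0.55, and -0.30 after centring.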
